A study of Mus musculus with 12 samples.

Results

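Ribosome biogenesis factors build ribosomal subunits without being part of the finished ribosome. The 43 genes described here were taken from a list of such factors, and their members are all the probe sets that the array's annotation assigns to exactly 1 of them. That gave 89 of the 45037 probe sets measured, and 43 of the 18193 genes with a probe set of their own. Testing required a signal averaging 100 or more across all 12 arrays. It was met by 85 of the 89 probe sets and by at least 1 probe set of each of the 43 genes, against 27808 probe sets and 13599 genes in all. The probe sets not tested were a pair of Polr1a and 1 each of Bop1 and Ebna1bp2.

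The 12 arrays measured total RNA of mouse blastocysts, the preimplantation embryo in which the inner cell mass has parted from the trophectoderm around it. There were 4 control arrays of normal blastocysts, 4 of blastocysts treated by 20 Ca2+ pulses and 4 of blastocysts cultured in Ca2+ free medium. By its title the series asks whether the pattern of Ca2+ oscillations in the fertilized egg alters later gene expression. Not given in the sources used here are the mouse strain, the form of the pulses, the time spent in Ca2+ free medium and the number of embryos per array. The labels do not name the embryos behind each replicate. The p-values therefore reflect only how far these samples spread, which may be technical. Since whole blastocysts were measured, fewer cells of a type and less RNA per cell cannot be told apart.

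Ribosome assembly starts in the nucleolus, where RNA polymerase I transcribes the precursor of the large ribosomal RNAs. Small nucleolar ribonucleoproteins (snoRNPs) guide chemical changes of that precursor, the small subunit (SSU) processome folds and cleaves its first part, and separate sets of factors finish the small (pre-40S) and large (pre-60S) subunits. Mouse embryos begin to make their own ribosomes soon after the embryonic genome is switched on, and many of these factors are needed for the embryo to reach or pass the blastocyst stage.

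Lineage markers of the blastocyst had a mean signal of at least 100 in every case, 3 of 3 for the inner cell mass, 4 of 4 for the trophectoderm and 4 of 4 for the primitive endoderm. Their summed signals overlapped between control and Ca-free arrays, but single markers differed. In Ca-free medium Gata4 was called lower (-0.69, adjusted p = 0.0024 by limma). Cdx2 (0.28, adjusted p = 0.020) and Pou5f1 (0.20, adjusted p = 0.033) were called higher, and the other lineage markers were not called. The primitive endoderm sum was 6699 to 7261 on pulse arrays against 5715 to 6468 on control arrays. From control to pulse arrays the mean signals of Sox17 (630 to 1289) and Pdgfra (658 to 944) rose. Those of Gata4 (222 to 173) and Gata6 (4558 to 4518) did not. Oviduct markers summed to 1032 to 1209 on control, 807 to 1028 on pulse and 533 to 695 on Ca-free arrays, and all 4 had a mean signal of at least 100. That mean was also reached by 3 of 3 sperm markers and 1 of the 2 blood markers found. Reaching it therefore does not show that cells of a type were present. Of the 5 cumulus and granulosa cell markers, Has2, Ptx3 and Tnfaip6 were under 100, while Amhr2 had a mean signal of 906 and Inha of 359. Inha was lower in Ca-free medium (-0.61, adjusted p = 0.0014 by limma) and Amhr2 was not called (0.22, adjusted p = 0.14). The deposited median signal was 49.4 to 53.0 on control arrays and 38.3 to 39.2 on Ca-free arrays, although the trimmed mean was set equal on all arrays. The 3' to 5' signal ratio of Gapdh, a measure of RNA and labelling quality, differed by -0.88 on the log2 scale between Ca-free and control arrays (exact two-sided permutation test over 70 arrangements, p = 0.0286, adjusted 0.0429 over 18 tests of array controls). The spiked hybridization controls differed by 0.21 (exact p = 0.0286). The 5', middle and 3' probe sets of 18S ribosomal RNA were higher on Ca-free than on control arrays by 3.29-, 1.49- and 2.14-fold (exact p = 0.0286 and adjusted p = 0.0429 for each). After 20 pulses the 5' one was higher than control by 2.11-fold (exact p = 0.0286, adjusted 0.0429). The part of these differences in the results below was not tested.

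In Ca-free medium the factors were split: a minority rose by 0.14 to 0.44 on the log2 scale, very few fell, and the rest did not pass the test. With each gene represented by its probe set of highest mean signal, 14 of the 43 genes were called higher than control and 2 lower. Among the representatives of all genes, 12.3% were called higher and 28.8% lower. Counted over all 85 tested probe sets of the members, 19 were higher (10.6% of all tested probe sets were) and 6 lower (29.7% of all). Changes are differences of log2(signal + 32), tested with limma over all tested probe sets at a Benjamini-Hochberg adjusted p under 0.05. The median change of the 43 genes was 0.14, against -0.13 for all genes, and 33 of the 43 changes were above 0. All 4 Ca-free arrays lay above all 4 control arrays for 14 genes and below them for 2 (9.23% and 27% of all tested probe sets). Of the representatives of all 13599 genes, 1471 lay above in this way and 3573 below. These counts depend on how the arrays are put on a common scale, as the comparison of scalings further on shows. With the hybridization controls as the scale, no representative was called higher, and 3 of the 85 probe sets were.

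**Figure D1:**
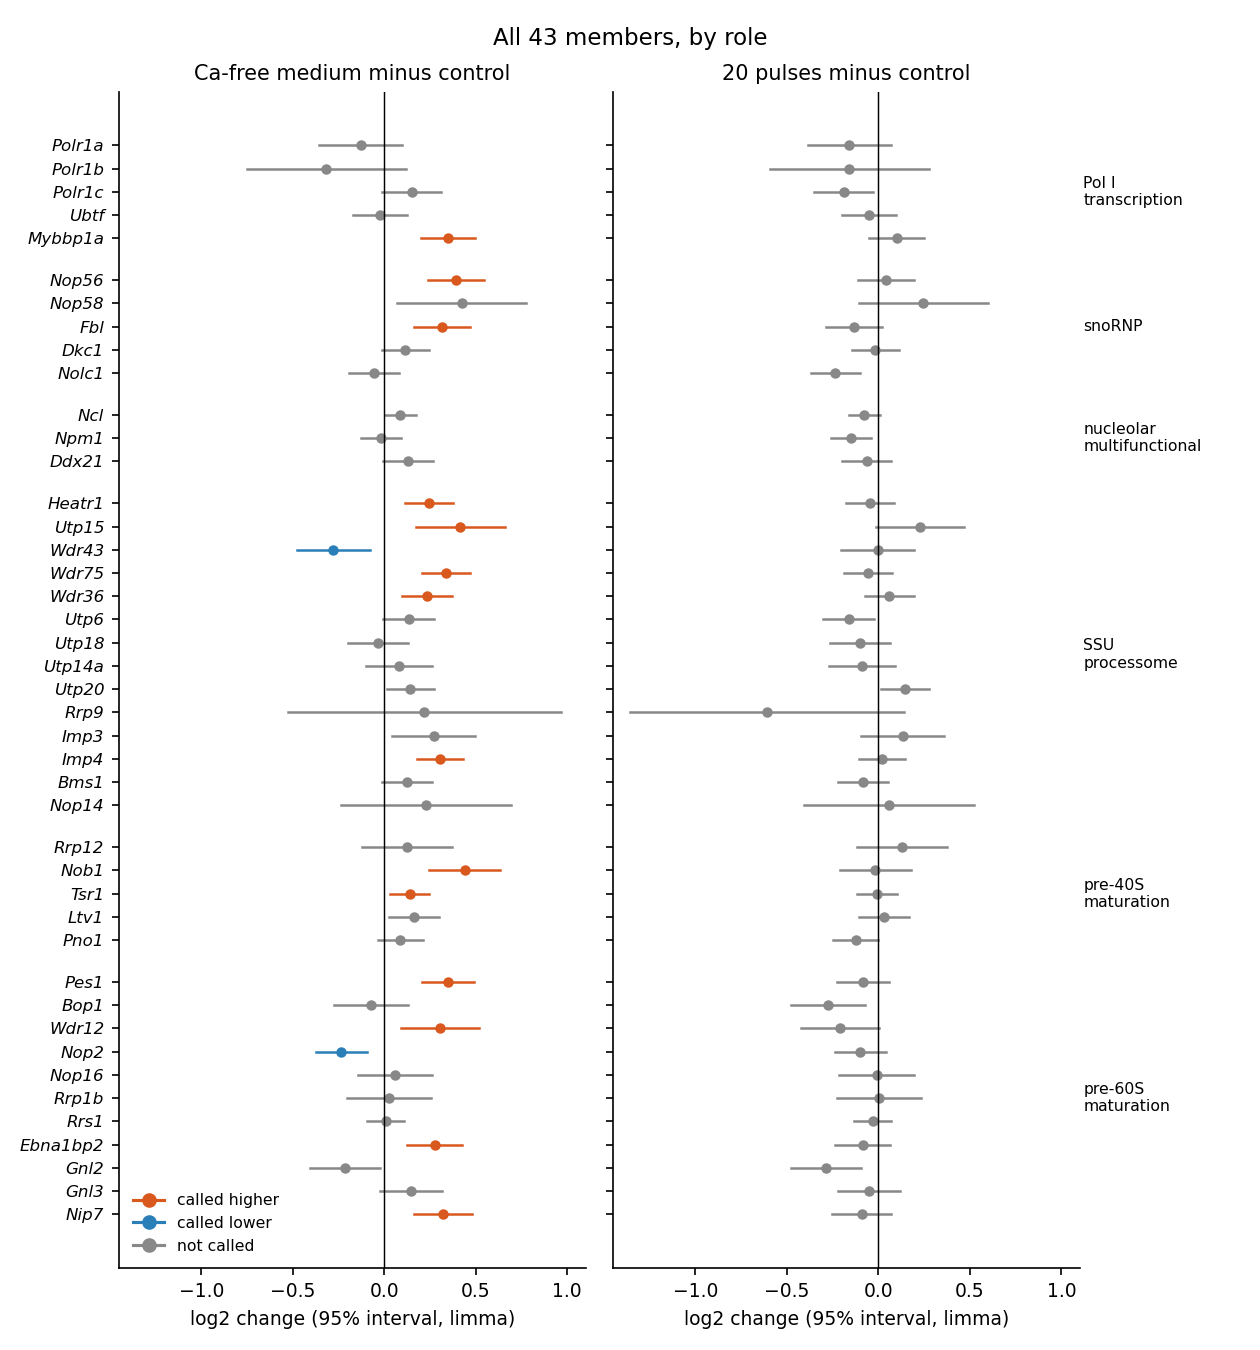
Log2 change of the representative probe set of each of the 43 factors, with its 95% interval from limma, in Ca-free medium (left) and after 20 pulses (right), each against the same 4 control arrays. Orange marks genes called higher, blue genes called lower and grey genes not called; 14 orange and 2 blue points stand on the left and none on the right.

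Among the factors of snoRNPs, 2 of 5 genes were called higher and 0 lower. Nop56, a core protein of the box C/D particles that guide ribose methylation, had signals of 2475, 2637, 2881 and 2979 on control arrays, 2558, 2860.4, 2754 and 3109 after 20 pulses, and 3532, 3588, 3606 and 3659.9 in Ca-free medium. The 4 Ca-free arrays lay close together and above every other array, while control and pulse arrays overlapped. Its change in Ca-free medium was 0.39 (SE 0.07, adjusted p = 0.0013 by limma). Fbl, the methyltransferase of the same particles, had signals of 5599.9, 6191, 5875 and 5579.9 on control, 5475, 5124, 5179 and 5364 on pulse and 7788, 6739, 6373 and 8162 on Ca-free arrays. Every Ca-free array was above every control array, with arrays 1 and 4 the highest, and every pulse array was below every control array. Fbl rose by 0.31 (adjusted p = 0.004) through this probe set, whereas its further probe set (1416684_at) changed by -0.06 and was not called. The change of Nop58, the partner of Nop56, was as large at 0.42 but missed the threshold (adjusted p = 0.053). Its signals of 3796 and 4298 on control arrays 1 and 2 stood well above the 2532 and 2386 on control arrays 3 and 4. The representatives of Dkc1, the pseudouridine synthase of box H/ACA particles, and of Nolc1, a chaperone of snoRNPs, changed by 0.11 and -0.06 and were not called.

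The SSU processome was the largest group, with 14 genes, of which 5 were called higher and 1 lower. Wdr75, a subunit of the UTP-A complex (also called t-UTP) that binds the nascent precursor, had signals of 3126, 2957, 2697 and 3113 on control, 2712, 2999, 2759 and 2945 on pulse and 3842, 3785, 3697 and 3731 on Ca-free arrays. All Ca-free arrays were above all others, and the first 2 groups overlapped. The change was 0.34 (SE 0.06, adjusted p = 0.0012). Utp15, from the same complex, read 1304, 1146, 927 and 1226 on control, 1196, 1411, 1492 and 1290.0 on pulse and 1462, 1637, 1758 and 1316 on Ca-free arrays. The Ca-free values exceeded all control values but overlapped with those after 20 pulses, and the change from control was 0.42 (SE 0.11, adjusted p = 0.011).

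Heatr1, the largest protein of that complex, had signals of 2548, 2420.2, 2570.4 and 2542 on control, 2609, 2204, 2449 and 2521 on pulse and 2961, 3089.8, 2937 and 2969 on Ca-free arrays. The Ca-free arrays stood above both other groups, with a change of 0.24 (adjusted p = 0.007). A dim probe set of Heatr1 (1452419_at) moved the other way: it read 195, 209, 249 and 195 on control arrays and 155, 149.7, 129 and 120.0 on Ca-free arrays. There the Ca-free arrays all lay below the control arrays, and the change was -0.52 (adjusted p = 0.018), a call that ended when control array 3 was left out. Wdr36, a subunit of the UTP-B complex, also had probe sets called both ways, and there both were bright. Its representative gave 2319.9, 2543, 2373 and 2568 on control, 2499, 2450.4, 2584 and 2687 on pulse and 2837, 3029, 3025 and 2675 on Ca-free arrays, a change of 0.24 (adjusted p = 0.01). The Ca-free arrays were above all control arrays here and overlapped with the pulse arrays. Its further probe set (1451087_at) gave 2184, 2010.2, 2289 and 2281 on control, 2151, 1768, 2391 and 2559.5 on pulse and 1542, 1469.8, 1517 and 1524 on Ca-free arrays. In this second reading the Ca-free arrays were below all others and close to each other, at a change of -0.52 (adjusted p = 0.0012). That call ended with median scaling (-0.12). Heatr1 and Wdr36 were the 2 members with probe sets called in both directions with the trimmed-mean scaling, so neither can be given a single direction. For Heatr1 the opposite call came only from a dim probe set.

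Imp4, which with Imp3 and Mphosph10 docks the U3 snoRNA on the precursor, had signals of 3562, 3278, 3499 and 3752 on control, 3469, 3557, 3589 and 3646 on pulse and 4194, 4725, 4145 and 4377 on Ca-free arrays. Every Ca-free array exceeded every other array, and the change was 0.30 (SE 0.06, adjusted p = 0.0016). Its partner Imp3 changed by 0.27, which missed the threshold (adjusted p = 0.054). Wdr43, a further UTP-A subunit, was the only representative of the processome called lower, a direction that turned with median scaling (0.13). It read 3687, 3795, 3249 and 3379.7 on control, 3892, 3817, 3275 and 3128 on pulse and 2668, 3248, 3183 and 2550.0 on Ca-free arrays. Ca-free arrays 1 and 4 were the lowest, while arrays 2 and 3 lay just under the lowest control array. The change was -0.28 (adjusted p = 0.028), and the call ended on leaving out control array 1, control array 2, Ca-free array 1 or Ca-free array 4. The other 8 processome genes were not called, with changes from -0.03 (Utp18) to 0.27 (Imp3). They include the UTP-B subunits Utp6 (0.13) and Utp18, the late-joining scaffold Utp20 (0.14), the GTPase Bms1 (0.12), Utp14a, which activates a helicase of the processome (0.08), and Nop14 (0.23). Rrp9, a protein of the U3 particle, could hardly be judged: it ranged from 368 to 997 on control and from 614 to 1054 on Ca-free arrays.

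Of the factors that finish the small subunit, 2 of 5 were called higher. Nob1, the nuclease that makes the last cut of the small subunit's RNA, had signals of 1238, 1188, 1081 and 1197 on control, 979, 1194, 1221 and 1273 on pulse and 1514, 1485, 1621 and 1813 on Ca-free arrays. All Ca-free arrays were above all others. At 0.44 (SE 0.09, adjusted p = 0.0026) this was the largest change among the called representatives. Tsr1, a translation GTPase-like factor of late small subunits, rose by 0.14 (adjusted p = 0.038) but turned to -0.066 with the hybridization control scaling, and its call ended on leaving out control array 3, control array 4, Ca-free array 1 or Ca-free array 2. Rrp12 and Ltv1, which take part in making small subunits fit for export, changed by 0.12 and 0.16, and Pno1, the partner of Nob1, by 0.09; none was called.

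Large subunit factors had 4 genes called higher and 1 lower of 11. Pes1 and Wdr12 form the PeBoW complex with Bop1. Pes1 had signals of 1864, 1989, 2035 and 2118 on control, 1716, 1972, 1860.2 and 2015 on pulse and 2509.8, 2636, 2507 and 2564 on Ca-free arrays. The Ca-free arrays lay above all others, with a change of 0.35 (SE 0.07, adjusted p = 0.0016). Wdr12 rose by 0.30 (adjusted p = 0.026), a call that ended on leaving out control array 1, control array 2, Ca-free array 2 or Ca-free array 3. Bop1 was not called: its change was -0.07, with a 95% interval of -0.28 to 0.14. Nip7, an assembly factor of early large subunits, read 3467, 3289.6, 4065 and 3912 on control, 3076, 3419.8, 3549 and 3750.4 on pulse and 4649.5, 4635, 4434 and 4645 on Ca-free arrays. Again no Ca-free array overlapped with another group, and the change was 0.32 (adjusted p = 0.0046). Ebna1bp2, which binds the nucleolar large subunit precursor, read 4129, 4717, 5186 and 4875 on control, 4138, 4449, 4429 and 4764 on pulse and 5787, 5620.2, 5357 and 6106 on Ca-free arrays. Its Ca-free values were above the rest by a smaller margin, with a change of 0.28 (adjusted p = 0.0075).

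Nop2, a methyltransferase of the large subunit's RNA, fell in Ca-free medium with the trimmed-mean scaling, a direction that turned with median scaling (0.17). It read 1793, 1945, 1851 and 1945 on control, 1815, 1744, 1807 and 1659 on pulse and 1511, 1684, 1673 and 1524 on Ca-free arrays. The Ca-free arrays were all under the control arrays and overlapped with the pulse arrays. The change was -0.23 (SE 0.07, adjusted p = 0.013), and the call ended with controls 1 and 2 only and with Ca-free arrays 2 and 3 only. Gnl2, a nucleolar GTPase, had a similar change of -0.21 that missed the threshold (adjusted p = 0.071). Rrs1, which helps to dock the 5S ribonucleoprotein, Rrp1b, Nop16 and Gnl3 (nucleostemin) were not called, with changes of 0.01, 0.02, 0.06 and 0.15. The Rrs1 probe set is of a class that can also bind related transcripts, which makes its value uncertain. The representatives of Nop56, Fbl, Tsr1, Bms1 and Polr1c are of another class (names ending in _s_at) that can match more than 1 transcript. The same caution holds for their values, although the annotation assigns each to 1 gene.

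Of the 5 genes of RNA polymerase I transcription, only Mybbp1a was called higher. Mybbp1a, a nucleolar protein that binds the polymerase and Myb, had signals of 3864, 3955, 3800.2 and 3851 on control, 3931, 4112, 4256 and 4287 on pulse and 4853, 4865, 4375 and 5734 on Ca-free arrays. The Ca-free arrays exceeded all others and were the most scattered, with array 4 the highest, at a change of 0.35 (SE 0.07, adjusted p = 0.002). The polymerase subunits Polr1a, Polr1b and Polr1c changed by -0.13, -0.32 and 0.15, and Ubtf, the factor that shapes active ribosomal DNA, by -0.03; none was called. Polr1b read 1543 and 1403 on control arrays 1 and 2 but 935 and 889 on control arrays 3 and 4. On the Ca-free arrays it read 667, 1249, 1168 and 744, with arrays 1 and 4 low, as they were for Wdr43. Those 2 arrays also had the higher Gapdh 3' to 5' ratios of the group, 5.05 and 4.73 against 3.10 and 2.89, and the part of this in the gene values was not tested. A further probe set of Polr1a (1456066_a_at) fell by 0.44 on the log2 scale (adjusted p = 0.0037). That call ended with median scaling (-0.06) and with controls 3 and 4 only. Another tested probe set of Polr1a (1460215_at) changed by 0.88 and was not called. The nucleolar proteins with several roles, the RNA-binding protein Ncl (nucleolin), the histone chaperone Npm1 (nucleophosmin) and the helicase Ddx21, changed by 0.09, -0.02 and 0.13 at their representatives, and 0 of 3 were called. Npm1 has many processed pseudogenes, which these probe sets may not tell from the gene.

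**Figure D2:**
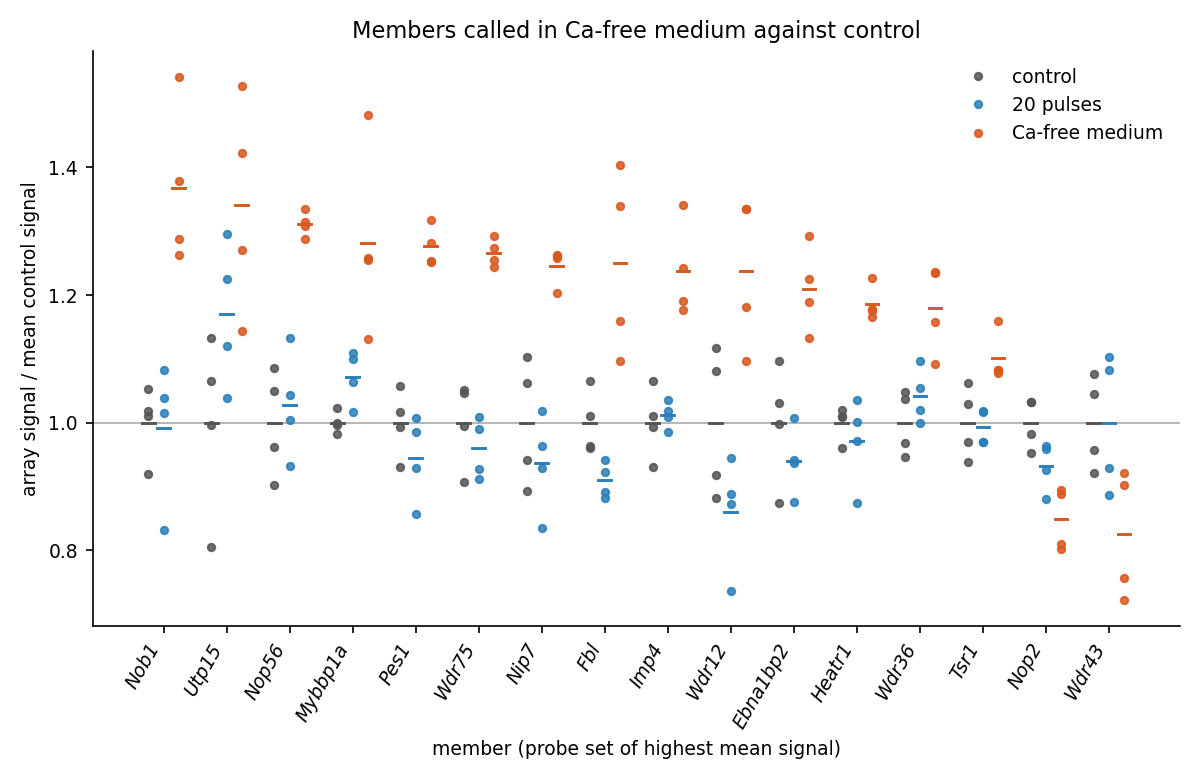
Signal on every array divided by the mean control signal, for the 16 factors whose representative probe set was called in Ca-free medium against control. Points are arrays and short lines group means; Ca-free points lie above all control points for every gene called higher except Wdr12, and below them for Nop2 and Wdr43.

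Different probe sets of a gene often differed in the size of their change or in their call. Of the 30 members with at least 2 tested probe sets, 14 had a called representative, and in 0 of these 14 was a further probe set called the same way. An absent call was not always a different direction. Nop56 1426533_at (0.34), Mybbp1a 1423430_at (0.34) and Wdr43 1428389_s_at (-0.27) changed nearly as much as their representatives but were not called. Further probe sets of 2 members, Heatr1 (1452419_at) and Wdr36, were called the opposite way. Opposite in sign but not called were, among others, Heatr1 1437965_at (-0.56), Wdr12 1459762_x_at (-0.31), Imp4 1455723_at (-0.17), Pes1 (-0.10), Fbl (-0.06) and Tsr1 (-0.015). Those of Heatr1, Wdr12 and Imp4 were dim, with mean signals of 156, 128 and 165. Other further probe sets of Wdr12 (0.16) and Imp4 (0.22) kept the sign of their representative. Conversely, members with an uncalled representative had further probe sets that were called. The following were chosen after their values were seen. Ncl probe set 1415772_at gave 1941, 1589.9, 1641 and 1732 on control, 2315, 2044, 2369 and 2345 on pulse and 2503, 3148, 3314 and 2686 on Ca-free arrays. The 3 groups did not overlap, with pulse arrays between control and Ca-free arrays. The change in Ca-free medium was 0.74 (SE 0.09, adjusted p = 0.00022), the largest called among members, while the Ncl representative (1415771_at) had a change of 0.09 with a 95% interval of 0.00 to 0.18.

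Nolc1 probe set 1450087_a_at gave 1013, 1063, 737 and 730.2 on control, 1164, 989, 1001 and 1007 on pulse and 1266, 1439, 1462 and 1446 on Ca-free arrays. Here the Ca-free arrays were again above the rest, and control arrays 3 and 4 were lower than controls 1 and 2. The change was 0.66 (SE 0.12, adjusted p = 0.0011), against -0.06 at the representative. A gap between the control pairs marked several of these probe sets. Dkc1 probe set 1438015_at read 3423 and 3337 on control arrays 1 and 2 but 2237 and 2211 on arrays 3 and 4; pulse arrays ran from 3498 to 3692 and Ca-free arrays from 3837 to 3884. It was called higher in Ca-free medium (0.49, adjusted p = 0.0058), as were Ncl 1415773_at (0.53) and Ddx21 1448271_a_at (0.33). The call of Ncl 1415773_at ended on leaving out control array 3, control array 4 or Ca-free array 2. Utp14a 1432250_at was called lower at -0.27 (0.13 with median scaling), a call that ended on leaving out control array 1, control array 2, Ca-free array 1 or Ca-free array 4. In all, 18 members had at least 1 probe set called higher and 6 at least 1 called lower.

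Control arrays 1 and 2 exceeded controls 3 and 4 by at least 1.3-fold in 11 of 85 member probe sets (12.9%, against 8.74% of all tested probe sets), and were lower by that factor in 2 (2.35% against 5.67%). The Actb 3' to 5' ratio differed between the same pairs, at 1.59 and 1.67 on controls 1 and 2 and 2.69 and 2.64 on controls 3 and 4. For 18S ribosomal RNA the probe set nearest the 5' end read 2409 and 2559 on the first pair and 878 and 883 on the second. Whether these measures of RNA quality have a part in the gap was not tested. With controls 3 and 4 as the only controls, 10 of the 25 calls named for Ca-free medium against control ended, among them those of the representatives of Ebna1bp2, Heatr1, Nip7, Wdr12, Wdr36 and Wdr43. With controls 1 and 2 as the only controls 5 of the 25 ended, and either choice leaves fewer arrays.

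**Figure D3:**
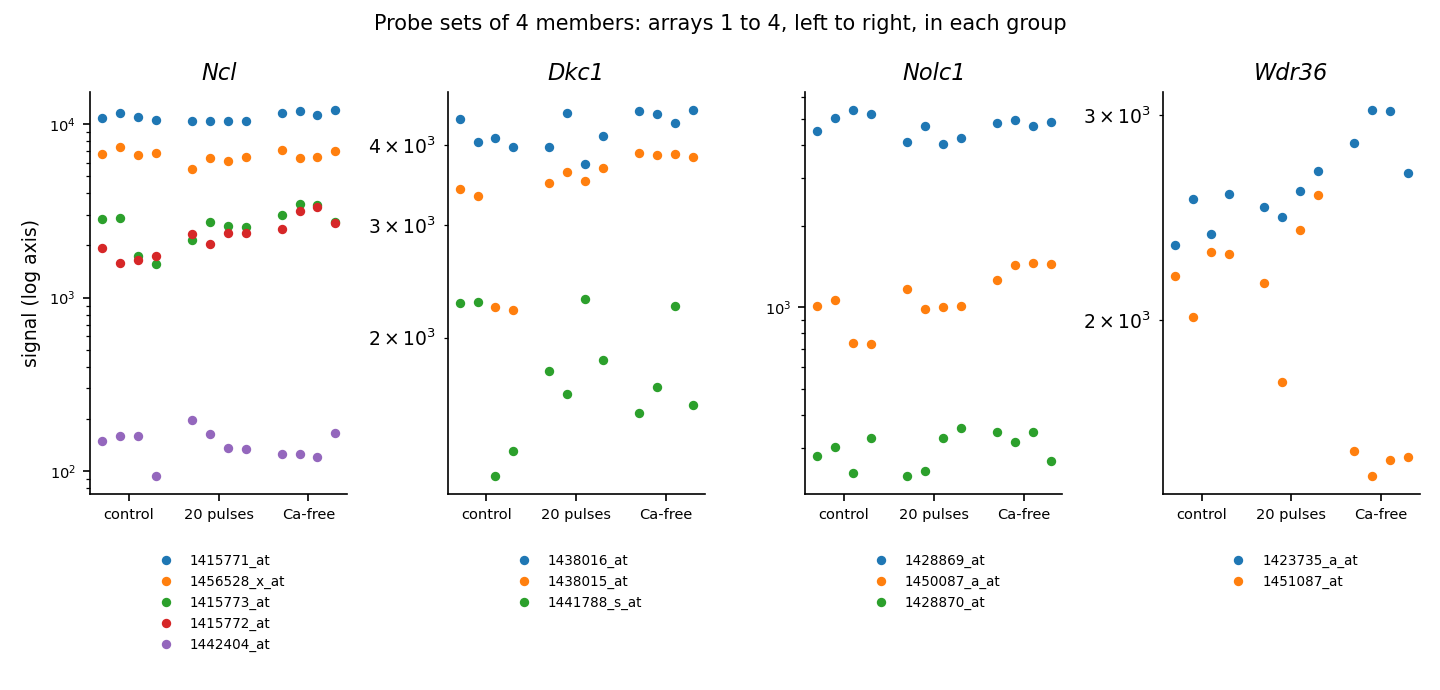
Signal (log axis) of all tested probe sets of Ncl, Dkc1, Nolc1 and Wdr36 on each array, with arrays 1 to 4 from left to right within each group. For Ncl the probe set at the top hardly moves while 1415772_at climbs from control to Ca-free arrays, Dkc1 1438015_at and Nolc1 1450087_a_at are low on control arrays 3 and 4, and the 2 probe sets of Wdr36 part in Ca-free medium.

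With the trimmed-mean scaling, changes in Ca-free medium depended on signal, and the factors lie mostly among bright probe sets. Of the 43 representatives, 23 were in the brightest 10th of all tested probe sets, 14 in the next, 4 in the one after and 2 in the seventh from the bottom. The median change of all tested probe sets ran from -0.39 in the second 10th to 0.12 in the brightest. In that brightest 10th 35.9% of probe sets were called higher and 4.28% lower. In the brightest 30% the shares were 26.2% and 11.1%, which sets the 14 higher and 2 lower of 43 member genes (32.6% and 4.65%) near the values of equally bright probe sets. The brightest 10th moved with the scaling as well: its median was 0.12 with the trimmed mean, 0.01 with quantile normalization (322 higher and 319 lower of 2781), 0.53 with the median (2630 and 8) and -0.09 with the hybridization controls (138 and 708). Nothing particular to ribosome biogenesis can be read from the number of calls or from the median of 0.14.

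**Figure D4:**
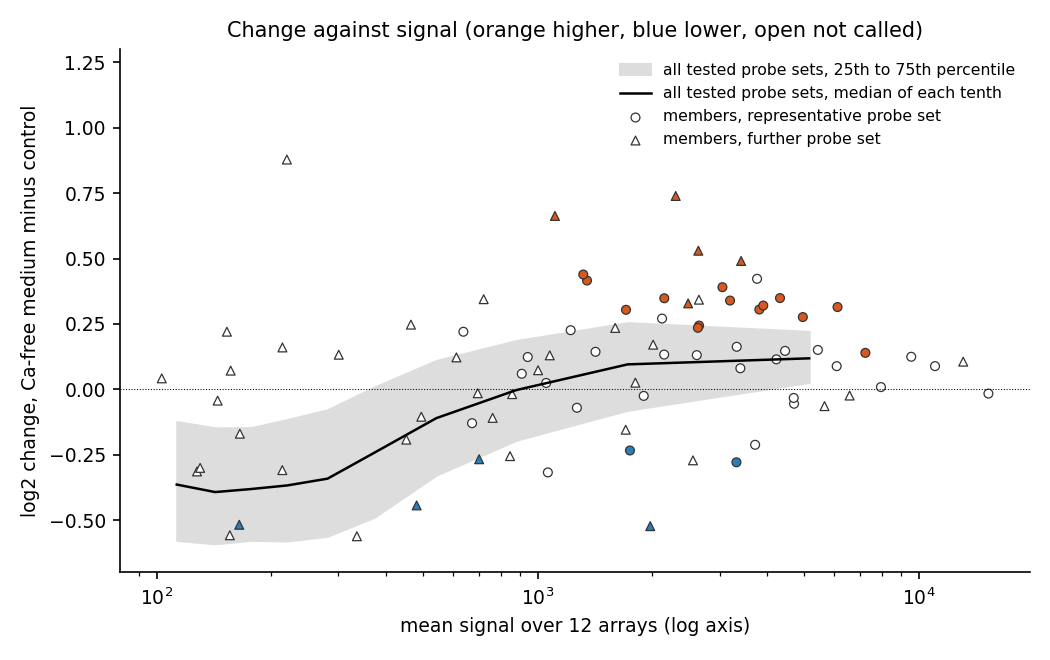
Log2 change in Ca-free medium against mean signal (log axis) for the 85 tested member probe sets, over the median (line) and the range from the 25th to the 75th percentile (grey) of all tested probe sets by 10th of signal. The median line climbs from -0.39 to 0.12 as signal grows, and most representatives (circles) lie at its bright end.

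The direction of change also rested on the scale chosen for the arrays. The median change of the 43 representatives was 0.14 with the trimmed mean, 0.03 with quantile normalization, 0.55 with arrays set to a common median and -0.07 with the hybridization controls, against all-gene medians of -0.13, -0.03, 0.25 and -0.32. In the same order, 14, 7, 37 and 0 genes were called higher, and 2, 5, 0 and 11 lower. Over all tested probe sets 9.85% were called higher and 9.93% lower with quantile normalization, 36.9% and 5.46% with the median, and 2.74% and 49.2% with the hybridization controls. Under all 4 scalings the median of the members lay above the median of all genes. Nop56, Fbl, Mybbp1a, Utp15, Wdr75, Nob1 and Pes1 were called higher under the 3 scalings other than the hybridization controls, where their changes were between 0.11 and 0.24 and not called. No representative was called the same way under all 4. Called the same way under all 4 were the probe sets Ncl 1415772_at and Nolc1 1450087_a_at, neither of them the representative of its gene.

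**Figure D5:**
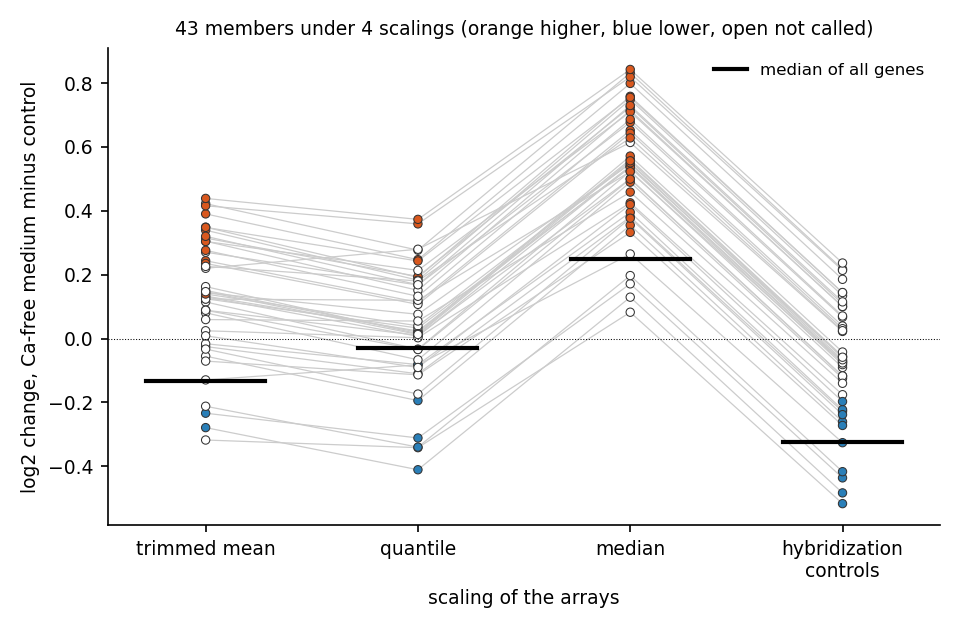
Log2 change of the 43 representatives in Ca-free medium against control under 4 ways of scaling the arrays; grey lines join the values of a gene and black bars mark the median of all genes. The members move up and down together with the scaling, from a median of 0.55 with median scaling to -0.07 with hybridization controls, and their median lies above the bar for all genes under each scaling.

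After 20 pulses none of the 43 representatives or of the 85 probe sets was called against control by limma. Calls were rare over the whole array as well. Of all tested probe sets 1.1% were called higher and 0.374% lower, and of the representatives of all genes 0.75% and 0.331%. The absence of calls is therefore nothing particular to the factors. At an unadjusted p under 0.05 stood 16 probe sets (18.8%, against 15.8% of all) and 8 representatives (18.6%, against 15.3% of all genes). The median change of the representatives was -0.06, against -0.04 for all genes. The half-width of their 95% intervals had a median of 0.15, and 39 of the 43 intervals lay within 0.5 either side of 0. That margin is wider than any change called among the representatives in Ca-free medium against control. Rrp9, whose signals after 20 pulses were 543, 168, 403 and 727, had the widest interval. Every pulse array lay below every control array for the representatives of Polr1c, Fbl, Ncl, Utp6 and Utp18, by changes of -0.19, -0.14, -0.08, -0.16 and -0.10. For Utp20, a scaffold of the processome, every pulse array lay above: 1435, 1463, 1448 and 1525 against 1315, 1331, 1365 and 1279.8, a change of 0.15 (adjusted p = 0.25). Over all tested probe sets, 5.85% had every pulse array above and 5.11% every pulse array below control. Of the representatives of all 13599 genes, 694 had every pulse array above and 761 every pulse array below.

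The member probe set nearest to the threshold was Ncl 1415772_at, with a change of 0.39 (SE 0.09, adjusted p = 0.052). It passed with both sets of hybridization controls as the scale (0.55, adjusted p = 0.0045, and 0.54, adjusted p = 0.012), with a minimum mean signal of 300 (adjusted p = 0.036), with only the 8 arrays compared (0.036) and without control array 1 (0.038). Leaving out control array 1 also brought calls for Dkc1 1438015_at (0.49) and the Nolc1 representative (-0.29). The choice of controls also mattered: against controls 3 and 4 alone, 5 member probe sets were called higher and 3 lower, and against controls 1 and 2 alone 0 were called in either direction. The higher ones were Ubtf 1460304_a_at (0.89), Dkc1 1438015_at (0.68), Nop58 (0.60), Ncl 1415773_at (0.59) and Nolc1 1450087_a_at (0.48), all of them probe sets with a gap between the control pairs. The lower ones were Ddx21 1448271_a_at (-0.46) and the representatives of Bop1 (-0.45) and Nolc1 (-0.31).

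Ca-free and pulse arrays were also compared directly. Of the 43 representatives, 20 were called higher in Ca-free medium than after 20 pulses and 1, Wdr43, lower (-0.28). The 20 became 8 with quantile normalization, 40 with median scaling and 0 with the hybridization controls. With the probe sets of each gene averaged it became 9, with 0 lower, against 12 higher and 2 lower in the comparison with control. Among the representatives of all genes 11.2% were higher and 21% lower, and in the brightest 10th of probe sets 49.8% and 2.48%. The median change was 0.18, against -0.12 for all genes. This comparison uses the same Ca-free arrays as the one with control and is no separate evidence, so its values are set side by side. Wdr12 differed by 0.52 from pulse and 0.30 from control arrays, Nob1 by 0.46 and 0.44, Fbl by 0.45 and 0.31, Pes1 by 0.43 and 0.35, Nip7 by 0.41 and 0.32, and Wdr75 by 0.40 and 0.34. Polr1c (0.34 and 0.15), Utp6 (0.30 and 0.13), Bms1 (0.21 and 0.12), Pno1 (0.21 and 0.09), Ddx21 (0.20 and 0.13), Nolc1 (0.18 and -0.06) and Ncl (0.17 and 0.09) were called against pulse arrays and not against control. Utp15 was called against control (0.42) and not against pulse arrays (0.19). The call of Wdr36 (0.18) ended on leaving out any of pulse arrays 1 to 3 or Ca-free arrays 1 to 3, that of Tsr1 (0.15) without pulse array 1 or 3 or Ca-free array 1 or 2, and that of Wdr43 without pulse array 1 or 2 or Ca-free array 1 or 4. At the probe set level 26 were higher and 5 lower (9.22% and 23.4% of all tested probe sets).

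A further 109 genes of ribosome biogenesis that are not members were listed by role, and 106 of them had a tested probe set. In Ca-free medium against control 35 of the 106 were called higher and 2 lower, with a median change of 0.12 (12.3% and 28.8% of the representatives of all genes, with a median of -0.13). In the brightest 10th of all tested probe sets 35.9% were called higher and 4.28% lower, with a median of 0.12. The brightness of the 106 genes was not taken into account. The counts became 18 and 2 with quantile normalization, 92 and 0 with the median, and 6 and 20 with the hybridization controls. By role, 12 of 31 processome genes, 11 of 43 large subunit factors, 5 of 11 genes of the exosome, which trims precursor ends, 3 of 11 of polymerase I transcription, 2 of 7 of snoRNPs and 2 of 3 small subunit factors were called higher. The 2 called lower were both large subunit factors. The 3 largest called increases were those of Aatf, a partner of Ngdn and Nol10 in the processome (0.64, SE 0.07, adjusted p = 0.00014), the helicase Ddx49 (0.62, SE 0.11, adjusted p = 0.0011) and Nmd3, the export adapter of large subunits (0.52, SE 0.07, adjusted p = 0.00034). Unlike every member representative, these 3 were called higher under all 4 scalings. Aatf rose from 873 ± 46 on control to 1383 ± 84.2 on Ca-free arrays (SD, n = 4), Ddx49 from 527 ± 23.7 to 832 ± 133 and Nmd3 from 4382 ± 384 to 6307 ± 353. The 2 genes called lower were Nol9, a kinase of ribosomal RNA processing (-0.46, adjusted p = 0.0029), and Nle1, a factor of large subunit maturation (-0.33, adjusted p = 0.042). After 20 pulses 0 of the 106 representatives was called. Among all 202 tested probe sets of these genes 1 was, Taf1d 1457292_at, with a change of 0.43 (adjusted p = 0.033); Taf1d is a subunit of the factor that selects the polymerase I promoter.

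Genes of ribosome biogenesis are known for promoters that hold the E-box CACGTG, the site of Myc and its relatives. RefSeq promoter sequences (GRCm38.p6) were found for 35 of the 43 members and searched over 250 bases upstream of the start on both strands. CACGTG, which reads the same on both strands, was in 3 of the 35 (8.6%, against 6.6% of 17492 coding genes), those of Imp4, Nop2 and Utp18. The ETS core CCGGAA was in 12 (34.3%, against 15.2%) and TATAAA in 2 (5.7%, against 12.4%). Among members called higher in Ca-free medium CCGGAA was in 4 of 12 and among those not called in 7 of 21. The 2 windows below are those that hold the E-box in members called in Ca-free medium, Imp4 (called higher) and Nop2 (called lower). Imp4 lies at chr1:34439579-34439828 and Nop2 at chr6:125131633-125131882, both on the plus strand, and the capitals mark CACGTG, which ends 116 bases upstream of the start in Imp4 and 55 in Nop2. A match of letters is a description and not evidence of a bound site.
Imp4: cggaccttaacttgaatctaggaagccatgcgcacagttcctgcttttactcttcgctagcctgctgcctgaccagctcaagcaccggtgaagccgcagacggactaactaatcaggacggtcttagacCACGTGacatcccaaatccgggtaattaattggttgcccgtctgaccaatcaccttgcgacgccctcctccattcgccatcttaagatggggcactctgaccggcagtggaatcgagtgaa
Nop2: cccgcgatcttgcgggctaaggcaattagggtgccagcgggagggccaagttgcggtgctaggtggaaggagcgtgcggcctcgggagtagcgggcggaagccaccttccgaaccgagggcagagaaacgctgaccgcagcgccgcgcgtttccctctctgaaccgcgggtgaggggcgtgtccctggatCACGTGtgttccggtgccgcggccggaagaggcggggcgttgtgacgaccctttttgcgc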

How the data were processed

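The submitters' processing notes name MAS5 without a version, and per the labels' protocols total RNA was purified and turned into biotinylated cRNA with a small-sample labelling assay. The deposited values are linear signal intensity, scaled by the authors to a 2% trimmed mean of 150.001 on every array, with 0 missing values. Here each array was rescaled to 500 (a factor of 3.33) and 32 was added before log2. Probe sets with a mean of at least 100 were tested, in 1 limma model (limma 3.58.1, R 4.3.3; lmFit, eBayes with intensity trend) over the 12 arrays with a mean per group, 4 arrays each, and Benjamini-Hochberg adjustment over 27808 probe sets. Gene names come from the platform's annotation, which pairs 34945 probe sets with 1 gene, 932 with several and 9160 with none; symbols were matched to RefSeq (GRCm38.p6). Precision is limited by the number of arrays; detection calls, scan dates and raw images were not used here.

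A gene is represented by its tested probe set of highest mean signal. Values on every array are given for up to 12 called representatives each way, for members with probe sets called both ways, and for those called under all scalings; of the other genes, the 3 largest called changes are named. The members and lists were chosen with earlier results of these data known. Alternatives were the scaling (quantile, median, 9 hybridization control probe sets), the added value, the filter, the trend, the arrays used and a block for replicate number. The model was tested on simulated data with known changes, all larger than those of the called representatives. The simulation held no effect of scaling or of signal on the change, so it does not bear on those limits. No 2 arrays held identical values.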

Additional observations from a re-analysis of the deposited data

Results flagged for a closer look

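In 5 of the 129 groups of 4 arrays of a representative probe set, 1 array stood far from the other 3 by Dixon's criterion, which chance meets in about 1 of 20 groups. Polr1c read 4311 on pulse array 2, against 4901 to 4997 on the other pulse arrays. Utp18 read 4350.1 on the same array, against 4539.6 to 4567. Tsr1 read 8142 on Ca-free array 2, against 7569.7 to 7606, and its call against control ended without that array. Nip7 read 4434 on Ca-free array 3, against 4635 to 4649.5, still above every control array. Nop16 read 859.8 on control array 1, against 904 to 909.7.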

How the results depend on the processing

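In Ca-free medium against control, 19 member probe sets were higher and 6 lower (14 and 2 genes); against 20 pulses 26 and 5 (20 and 1 genes); after 20 pulses 0. With quantile normalization these were 12 and 9 (7 and 5 genes) against control, and 11 and 3 (8 genes higher) against 20 pulses. Median scaling gave 62 and 0 (37 and 0 genes) and 59 and 0 (40 and 0 genes). Hybridization controls gave 3 and 27 (0 and 11 genes), 1 and 44 (0 and 20 genes), and 4 higher after 20 pulses (1 gene). An older set of such controls, chosen after seeing the data, gave 1 and 42 (0 and 20 genes), 0 and 62 (0 and 30 genes) and 2. A minimum signal of 300 or only the 8 arrays compared gave 1 higher after 20 pulses. Genes lower than after 20 pulses became 0 without the filter, without the trend, with 8 arrays or with Ca-free arrays 2 and 3 alone, and 2 with Ca-free arrays 1 and 4 alone; averaging the probe sets of each gene gave 9 higher and 0 lower, against 12 and 2 in the comparison with control. Genes lower than control became 1 without the trend or with Ca-free arrays 2 and 3, and 4 with arrays 1 and 4. Ca-free arrays 2 and 3 alone gave 3 probe sets lower in each comparison, and controls 3 and 4 alone gave 3 lower in Ca-free medium and 5 and 3 after 20 pulses (1 and 2 genes).

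Direction turned for Tsr1 with quantile normalization (-0.017 against 20 pulses). With median scaling it turned for Nop2 (0.17), Wdr43 (0.13) and Utp14a 1432250_at (0.13) against control and for Wdr43 (0.10) against 20 pulses. With hybridization controls it turned for Tsr1 (-0.066) against control and, against 20 pulses, for Mybbp1a (-0.12), Wdr36 (-0.19), Heatr1 (-0.077), Imp4 (-0.080), Ebna1bp2 (-0.0062), Nop56 (-0.015) and Tsr1 (-0.22). Leaving out each array in turn gave 17 to 22 probe sets higher and 4 to 9 lower than control (12 to 16 and 1 to 3 genes), 22 to 27 and 2 to 7 against 20 pulses (16 to 20 and 0 to 1 genes), and after 20 pulses 0 to 2 higher and 0 to 1 lower (0 to 0 and 0 to 1 genes). A block for replicate number gave 21 and 7 probe sets (16 and 2 genes) against control, 26 and 6 (20 and 1 genes) against 20 pulses and 0 after 20 pulses; same-numbered arrays correlated at a mean r of 0.016, and 7 of 12 arrays correlated best with their own number, so the numbers were not taken as pairs. The cause of these shifts was not tested.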
